A study of Mus musculus with 39 samples.

Results

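Liver transcripts of male C57BL6/J mice were compared 24 hrs after a 5-day regimen of exposure to an aggressor mouse (AggE) with those of sham-exposed controls (Ctrl). The comparison holds 5 AggE and 4 Ctrl mice, 9 of the 39 arrays of the series, and every array was assigned by the regimen, treatment and rest period in its labels. All 17016 genes with a probe for a RefSeq transcript were taken into account. AggE mice spent 6 hrs of each day in a small cage inside the home cage of a trained aggressor, without food or liquid, and were placed 3 times per session in contact with it. Ctrl mice went through the same daily sessions, single housing and deprivation with no aggressor present, in a separate room. The methods give the mice as 5 to 6 weeks old. In a partition test 1 hour before the terminal bleed, each subject mouse was put behind a partition in the home cage of an aggressor. The short description of the AggE mice names 1 day of stress, whereas the source name of the same samples gives 5 days, which was followed here. Each mouse gave 1 array, so the replicates are separate animals.

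The liver secretes most of the proteins that circulate in plasma, and in response to tissue injury or infection hepatocytes raise a group of them, the acute phase proteins, under the control of IL-6, IL-1 and glucocorticoids. Metallothioneins, which bind zinc and copper, respond to zinc, glucocorticoids and the same cytokines. The nuclear receptor PPARα is activated by fatty acids, as in fasting, and its target genes include the Cyp4a family, whose enzymes hydroxylate fatty acids at the end of the chain.

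Liver RNA was labeled with Cy-5 and a universal mouse reference RNA with Cy-3, and values are given as log2 of Cy-5 over Cy-3. A gene was called where limma's moderated test, fitted to all arrays of the series, gave a p of at most 0.05 after Benjamini-Hochberg adjustment. In all, 528 genes (3.1% of 17016) were called, 275 higher (1.62%) and 253 lower (1.49%) in AggE. Leaving out a Ctrl mouse lowered the count to 242, 300, 330 and 198 for mice 1 to 4. The split depended on the scaling, with 11 higher and 5 lower without normalization between arrays, 7 and 2 where the slide was a random block, 34 and 81 in the log ratios of the series table and 95 and 326 with no offset in the background correction. At an unadjusted p of 0.05 or less stood 2857 genes (16.8%). With the limits of 2-fold and an unadjusted p of 0.05, 51 genes were called (0.3%), 31 higher (0.182%) and 20 lower (0.118%). The direction of this split depended on the scaling too. It was 17 higher and 128 lower without normalization between arrays, 35 and 111 without background correction and 222 and 502 with no offset. With Cy-5 alone it was 28 and 13. The 4 Ctrl arrays lay on 1 slide, AggE mice 1 to 4 on another and AggE mouse 5 on yet another, so slide and group cannot be told apart. With the slide as a random block, 9 genes were called, all of them among the 528.

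Most called genes were dim. Well above background, by the mark of the scanner software in Cy-5 on every array of at least 1 group, were 6500 genes, of which 116 were called (1.78%), 49 higher (0.754%) and 67 lower (1.03%). Of the 275 called rises, 165 were well above background on none of the 9 arrays, and of the 253 called falls, 127. Of the called and detected genes, 22 rises and 8 falls reached 2-fold. At 2-fold and an unadjusted p of 0.05, 50 detected genes were called (0.769%), 31 higher (0.477%) and 19 lower (0.292%). The median change of the called and detected genes was 0.91 among rises and -0.42 among falls on the log2 scale, beside a median of -0.0004 over all genes. All 5 AggE values lay outside the Ctrl range for 1260 genes (7.4%), and for 410 of the detected genes (6.31%), 108 above (1.66%) and 302 below (4.65%). In Cy-5, probes well above background made up 24.9% to 30.5% on the Ctrl arrays and 15.3% to 27.8% on the AggE arrays. The reference channel, which holds the same RNA on every array, differed in the same direction, with 45.5% to 53.3% in Ctrl and 27.8% to 43.9% in AggE. The part of this difference in the calls was not tested. All 8 hepatocyte markers were detected, and their summed Cy-5 signal of 133510 to 172860 in Ctrl overlapped that of 145950 to 204500 in AggE. The median of their log2 ratios relative to the Ctrl means was -0.11 to 0.17 in Ctrl and -0.89 to 0.20 in AggE, with AggE mouse 5 the lowest. Of 9 markers of pericentral hepatocytes, none was called, 2 had a positive change and the median was -0.19. Their median relative to the Ctrl means was -0.40 to -0.07 in the AggE mice, just below the -0.06 to 0.06 of the Ctrl mice, and its part in the falls described below was not tested. In bulk liver, fewer cells of a type and less RNA per cell cannot be told apart.

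**Figure D1:**
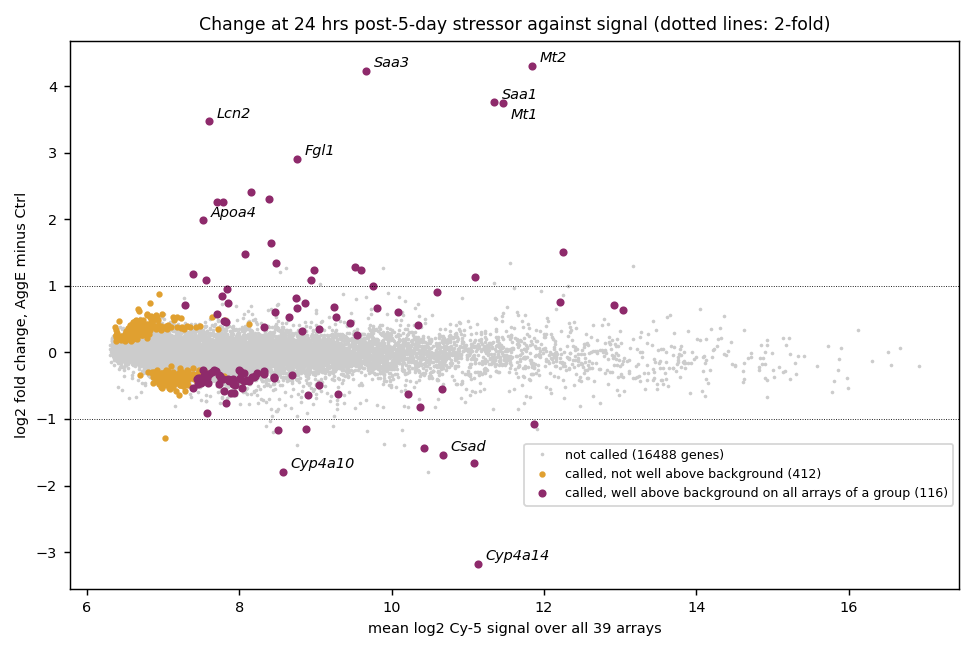
Change of each of the 17016 genes (vertical axis, log2 fold change of AggE over Ctrl) against its mean log2 Cy-5 signal over all 39 arrays (horizontal axis). Purple points are the 116 called genes well above background, orange points the other called genes, which crowd at the dim end within 2-fold (dotted lines), with 1 exception, and gray points were not called. Lcn2 is plotted at its fitted value although it was dim in all Ctrl mice.

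Several acute phase proteins rose in the liver of AggE mice. Of 33 listed genes with a probe, 9 rose, none fell and 24 did not pass the test, against 1.62% of all genes called higher. The median change of the list was 0.34 on the log2 scale, 27 of the 33 members had a positive change, and for 10 all AggE values lay above the Ctrl range, against 2.53% of all genes. The median over the members, relative to the Ctrl means, was 0.44, 0.50, 0.50, 0.61 and 0.20 in AggE mice 1 to 5 and -0.08 to 0.03 in the Ctrl mice. The number of called members ranged from 3 to 15 over the alternative settings and was 4 with the slide as a random block.

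The serum amyloid A genes encode apolipoproteins of high density lipoprotein that rise steeply in an acute phase response. Saa1 had log2 ratios of 1.87, 1.76, 2.69 and 1.37 in Ctrl mice 1 to 4 and of 5.85, 6.28, 5.27, 6.01 and 5.00 in AggE mice 1 to 5. All AggE mice were far above all Ctrl mice, and the highest Ctrl mouse was mouse 3. The log2 fold change was 3.76 ± 0.44 (SE, n = 4 and 5; limma adjusted p = 2.49e-06), and the change by its other probe was 2.82. Saa3, made in macrophages and other cells besides hepatocytes, stood at -0.81, -0.85, -0.34 and -1.25 in Ctrl and at 3.63, 4.14, 1.41, 4.51 and 3.41 in AggE. AggE mouse 3 was the lowest of its group and still above every Ctrl mouse. Its log2 fold change of 4.23 ± 0.38 (adjusted p = 2.68e-08) was the largest after that of Mt2. Saa2, next of kin to Saa1, had values of 3.77, 3.37, 3.97 and 2.93 in Ctrl and 4.13, 4.56, 5.39, 4.59 and 3.71 in AggE. Here the groups overlapped through AggE mouse 5, and the change of 0.97 ± 0.60 did not pass the test (adjusted p = 0.441). In Cy-5, scaled so that the arrays share 1 distribution of mean intensity, the mean log2 signal of Saa2 was 9.93 in Ctrl and 16.60 in AggE, a gap wider than that of Saa1, at 9.87 and 16.12. The ratio and the Cy-5 signal of Saa2 thus differed widely in the size of the change. Saa1 and Saa2 are close in sequence, and how far their probes share signal is uncertain.

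Lcn2 encodes lipocalin 2, which binds bacterial iron carriers and is released by hepatocytes and neutrophils in inflammation. Its log2 ratio was -0.22, -0.23, -0.25 and -0.38 in Ctrl and 3.73, 3.32, 1.94, 4.75 and 2.26 in AggE. The probe was well above background in 0 of 4 Ctrl mice and in 5 of 5 AggE mice. Lcn2 was therefore at least 6.28-fold higher in AggE (limma adjusted p = 4.97e-08), a bound that takes for each Ctrl array the lowest signal well above background or the probe's own, whichever is higher, and here equals the ratio of the Cy-5 group means. Apcs, the gene of serum amyloid P, the pentraxin that serves as an acute phase protein in mice, was at 0.70, 0.41, 0.69 and 0.63 in Ctrl and at 3.44, 2.83, 1.93, 3.45 and 2.72 in AggE. The groups lay far apart, with AggE mouse 3 the lowest of its group again. The log2 fold change was 2.27 ± 0.25 (adjusted p = 1.17e-06). The reference was well above background for Apcs on none of the 9 arrays, and with Cy-5 alone the change was 1.49.

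The orosomucoids are small acid glycoproteins that carry lipophilic molecules in plasma. Orm3 had log2 ratios of 1.56, 0.94, 1.42 and 1.81 in Ctrl and of 3.97, 4.15, 2.78, 4.05 and 3.74 in AggE, and rose by 2.30 ± 0.40 (adjusted p = 0.00118). Orm2 was bright in both groups, at 6.26, 6.21, 6.75 and 6.24 in Ctrl and at 8.32, 8.0, 7.80, 8.29 and 6.97 in AggE. All AggE mice exceeded all Ctrl mice in both genes, mouse 5 of Orm2 by the least. Orm2 rose by 1.51 ± 0.32 (adjusted p = 0.00717), and the change of Orm1, 1.35, did not pass the test. The size of the Orm2 change depended on the processing, with 0.23 in the series table, 0.44 without normalization between arrays, 0.51 with no offset, 0.84 with an offset of 16 and 0.88 in the processed signals, none of them called. It was not called either in a fit of the 9 arrays alone (adjusted p = 0.0512) or with the slide as a random block (1.35, adjusted p = 0.436). The 3 genes are close in sequence, and their probes may share signal.

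Serpina3n, an inhibitor of serine proteases, had the widest Ctrl range of the called acute phase genes, with 1.51, 0.78, 2.66 and 0.72, against 4.31, 4.10, 3.21, 4.25 and 3.27 in AggE. The groups did not overlap, although Ctrl mouse 3 came close to AggE mice 3 and 5. The log2 fold change of 2.41 ± 0.40 was called (adjusted p = 0.000798), and in the signals processed by the scanner software it was 0.06. In the reference channel Serpina3n was well above background on 0 Ctrl and 3 AggE arrays.

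Smaller rises were called for the complement component C4b and for Cp, the copper-binding ferroxidase ceruloplasmin. C4b was at 4.09, 4.47, 4.47 and 3.88 in Ctrl and at 5.32, 5.70, 5.08, 5.92 and 4.76 in AggE, with a log2 fold change of 1.13 ± 0.30 (adjusted p = 0.033). Cp was at 1.94, 1.96, 1.53 and 1.84 in Ctrl and at 2.39, 2.57, 2.50, 3.17 and 2.04 in AggE, with a change of 0.72 ± 0.19 (adjusted p = 0.0296). In both genes AggE mouse 5 was the lowest of its group and just above the Ctrl mice. Either call was lost without AggE mouse 4, where the change was 0.99 for C4b and 0.56 for Cp, and without Ctrl mouse 1, where it was 1.08 and 0.76, or Ctrl mouse 4, where it was 1.01 and 0.72. Without normalization between arrays the change of C4b was 0.44, not called. Its call was also lost without Ctrl mouse 2 (1.21) or AggE mouse 2 (1.04), and that of Cp without Ctrl mouse 3 (0.62).

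Other classical members of the response did not pass the test. Hp, the gene of the hemoglobin binder haptoglobin, had log2 ratios of 7.10, 6.78, 6.57 and 6.29 in Ctrl and 6.21, 6.92, 7.18, 6.61 and 5.67 in AggE. The ranges overlapped nearly in full, and the change was -0.17 (95% confidence interval -0.68 to 0.35; adjusted p = 0.827). Its mean log2 Cy-5 signal ran in the other direction, from 16.01 in Ctrl to 16.87 in AggE. The fibrinogen chains Fga, Fgb and Fgg changed by 0.80, -0.17 and 0.55, and the third complement component C3 by 0.34, without a call. Of 18 plasma carriers that are known to fall in an acute phase response, none was called, their median change was -0.04, and their median relative to the Ctrl means was -0.05, 0.21, 0.29 and 0.08 in AggE mice 1 to 4 but -0.92 in mouse 5, against -0.18 to 0.15 in the Ctrl mice. Of these carriers, albumin (Alb) changed by -0.13. Timp1, an inhibitor of matrix metalloproteinases, was at -3.35, -3.38, -3.39 and -3.38 in Ctrl and at -2.98, -2.95, -2.77, -2.71 and -3.17 in AggE. All AggE mice were above the narrow Ctrl range, but the change of 0.45 ± 0.17 did not pass the test (adjusted p = 0.126).

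**Figure D2:**
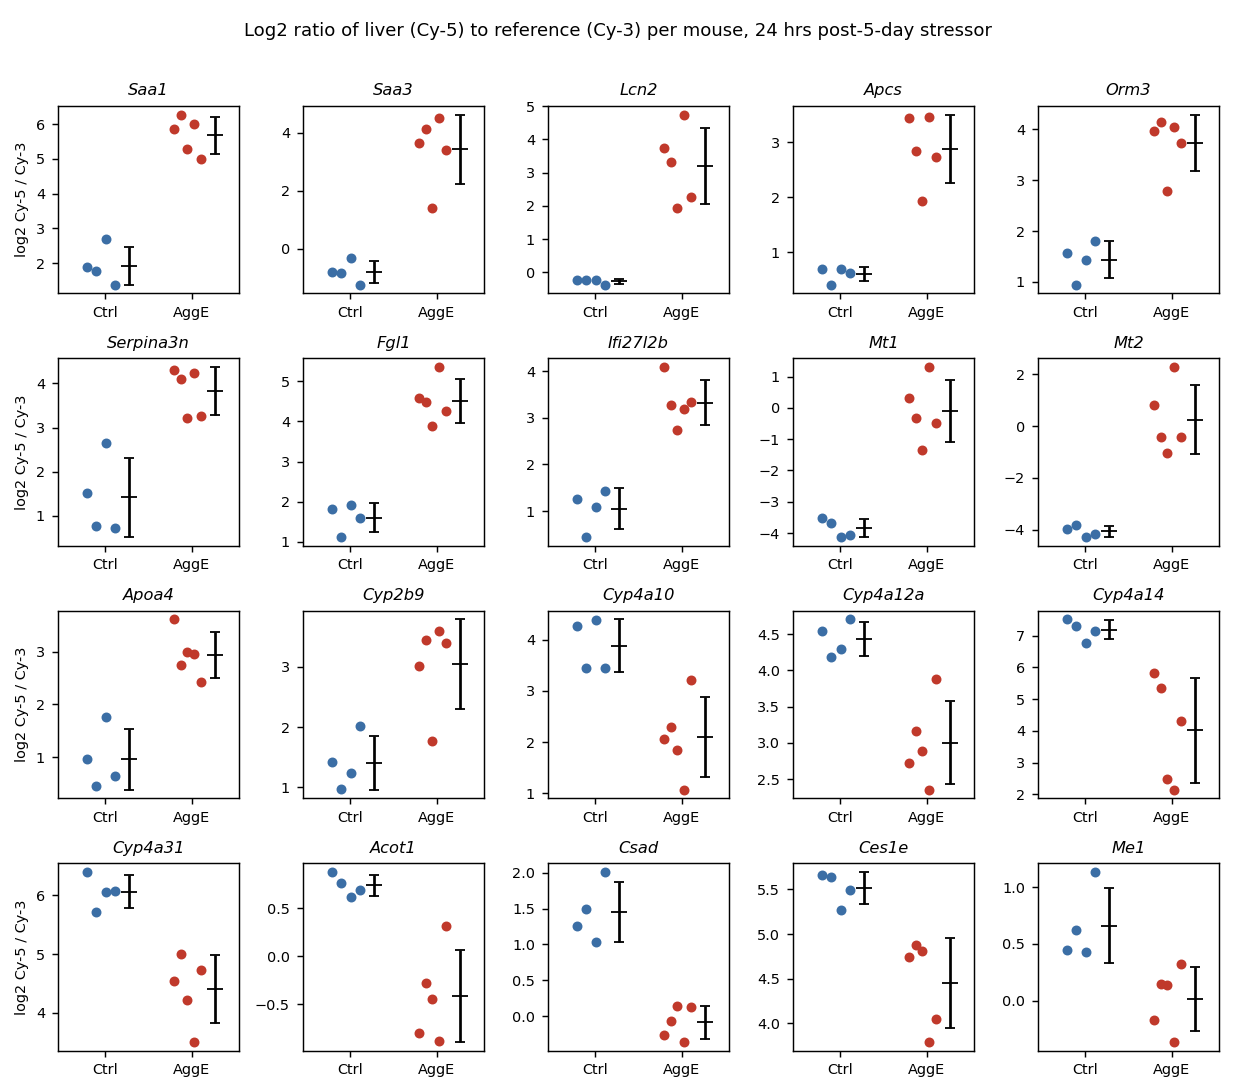
Log2 ratio of liver (Cy-5) to reference (Cy-3) in each of the 4 Ctrl (blue) and 5 AggE (red) mice, in order of their number from left to right, for 20 called genes, each on its own scale. Bars give the mean and SD of a group. In Saa1 the AggE mice lie between 5.00 and 6.28 and the Ctrl mice between 1.37 and 2.69, whereas in Cyp4a14 the AggE mice spread from 2.14 to 5.81 below a Ctrl range of 6.78 to 7.51.

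Fgl1 and Ifi27l2b, which are on none of the lists, rose as steeply. Fgl1 encodes hepassocin, a fibrinogen-like protein that hepatocytes secrete and that IL-6 induces. It was at 1.81, 1.11, 1.91 and 1.58 in Ctrl and at 4.58, 4.47, 3.89, 5.35 and 4.27 in AggE, and rose by 2.91 ± 0.34 (limma adjusted p = 3.25e-06). Ifi27l2b, of a family of small interferon-inducible membrane proteins, was at 1.26, 0.44, 1.09 and 1.44 in Ctrl and at 4.09, 3.27, 2.74, 3.18 and 3.34 in AggE. Its log2 fold change was 2.27 ± 0.22 (adjusted p = 7.46e-08). The groups were separate in both genes, with AggE mouse 3 the lowest of the exposed mice. The reference was not well above background for either on any of the 9 arrays, and with Cy-5 alone the changes were 2.15 and 1.57. That of Ifi27l2b was 1.34 in the processed signals and 0.97 in the series table, and not called in either. The list of interferon response genes did not move with Ifi27l2b, with 0 of 21 members called and a median change of -0.07.

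Saa3, Saa1, Lcn2, Fgl1, Ifi27l2b and Apcs kept their calls with the slide as a random block, with changes of 4.17, 3.52, 3.27, 2.88, 2.31 and 2.26 and adjusted p-values of 0.000912, 0.0281, 0.0024, 0.0225, 0.00173 and 0.00378. The other 3 genes called in that fit were Olfr584, Hic2 and Mob3a, whose changes of 0.73, -0.50 and -0.68 were smaller and which are named here after their values were seen. In that fit Serpina3n and Orm3 changed by 2.29 and 2.36, close to their values above, at an adjusted p of 0.20 each.

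Metallothionein transcripts rose together. Mt2 had log2 ratios of -3.96, -3.80, -4.29 and -4.16 in Ctrl and of 0.83, -0.40, -1.02, 2.28 and -0.42 in AggE. The Ctrl mice agreed closely, and the AggE mice, all far above them, spread widely, from mouse 3 to mouse 4. The log2 fold change was 4.31 ± 0.83 (95% confidence interval 2.62 to 5.99; limma adjusted p = 0.0038). Mt1 was at -3.52, -3.67, -4.13 and -4.05 in Ctrl and at 0.32, -0.31, -1.34, 1.31 and -0.48 in AggE. The order of the AggE mice was that of Mt2, with mouse 4 at the top and mouse 3 at the bottom. Mt1 rose by 3.74 ± 0.52 (adjusted p = 4.77e-05). With the slide as a random block the changes were 3.63 for Mt1 and 4.10 for Mt2, at adjusted p-values of 0.072 and 0.363.

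Of the other genes of zinc handling none was called higher. Of 15 listed metallothioneins and zinc transporters with a probe, Mt1 and Mt2 rose, Slc30a6, a zinc transporter of the Golgi, fell and 12 did not pass the test, against 1.62% of all genes called higher and 1.49% lower, and the median change was -0.004. At an unadjusted limma p of 0.05 or less stood 9 of the 15, Mt1 and Mt2 among them, against 16.8% of all genes. All AggE values lay above the Ctrl range for 2 members and below it for 2. Slc30a6 was dim in all AggE mice and at least 1.30-fold lower (adjusted p = 0.0393), a call that was lost without any of 8 mice. With the slide as a random block none of Mt1, Mt2 and Slc30a6 was called, and Slc30a6 changed by -0.26 (adjusted p = 0.609). Slc39a14, the zinc importer that inflammation induces in hepatocytes, changed by 0.10 (adjusted p = 0.898), and Mtf1, the gene of the zinc-sensing transcription factor, was well above background on 1 Ctrl and 0 AggE arrays. Mt1 and Mt2 are neighbors on chromosome 8, and their probes may share signal.

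Among glucocorticoid receptor targets, 3 of 24 rose, namely Mt2, Lcn2 and Sult1e1, and none fell, against 1.62% of all genes called higher. Only Lcn2 kept its call among them where the slide was a random block, although Mt2 (4.10, adjusted p = 0.363) and the fitted value of Sult1e1 (0.65, adjusted p = 0.368) were about as large there. Sult1e1, an estrogen sulfotransferase, was well above background in 0 Ctrl and 2 AggE mice and was at least 1.68-fold higher (adjusted p = 0.0184), and its call was lost without Ctrl mouse 3 or 4 or AggE mouse 5. Mt2 and Lcn2 also respond to cytokines and stand on other lists as well. Without a call, Tsc22d3, the gene of the glucocorticoid-induced leucine zipper, changed by -0.01, Fkbp5 by 0.13, Per1 by -0.07 and Tat by 0.10. The receptors and transducers of IL-6 and IL-1 signalling had 0 of 21 members called and a median change of -0.01, Socs3 changing by -0.09 and Stat3 by 0.27. Targets of NF-κB and endotoxin had 1 of 30 members called, Birc3, an inhibitor of apoptosis, at -0.27 (adjusted p = 0.0487), not called without any of 5 mice, with changes of -0.27 to -0.23. This is about the share of all genes called (3.1%), and the slide as a random block left none of these targets called (Birc3 -0.25, adjusted p = 0.622). The cytokine genes Il1b and Tnf were well above background on none of the 9 arrays.

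**Figure D3:**
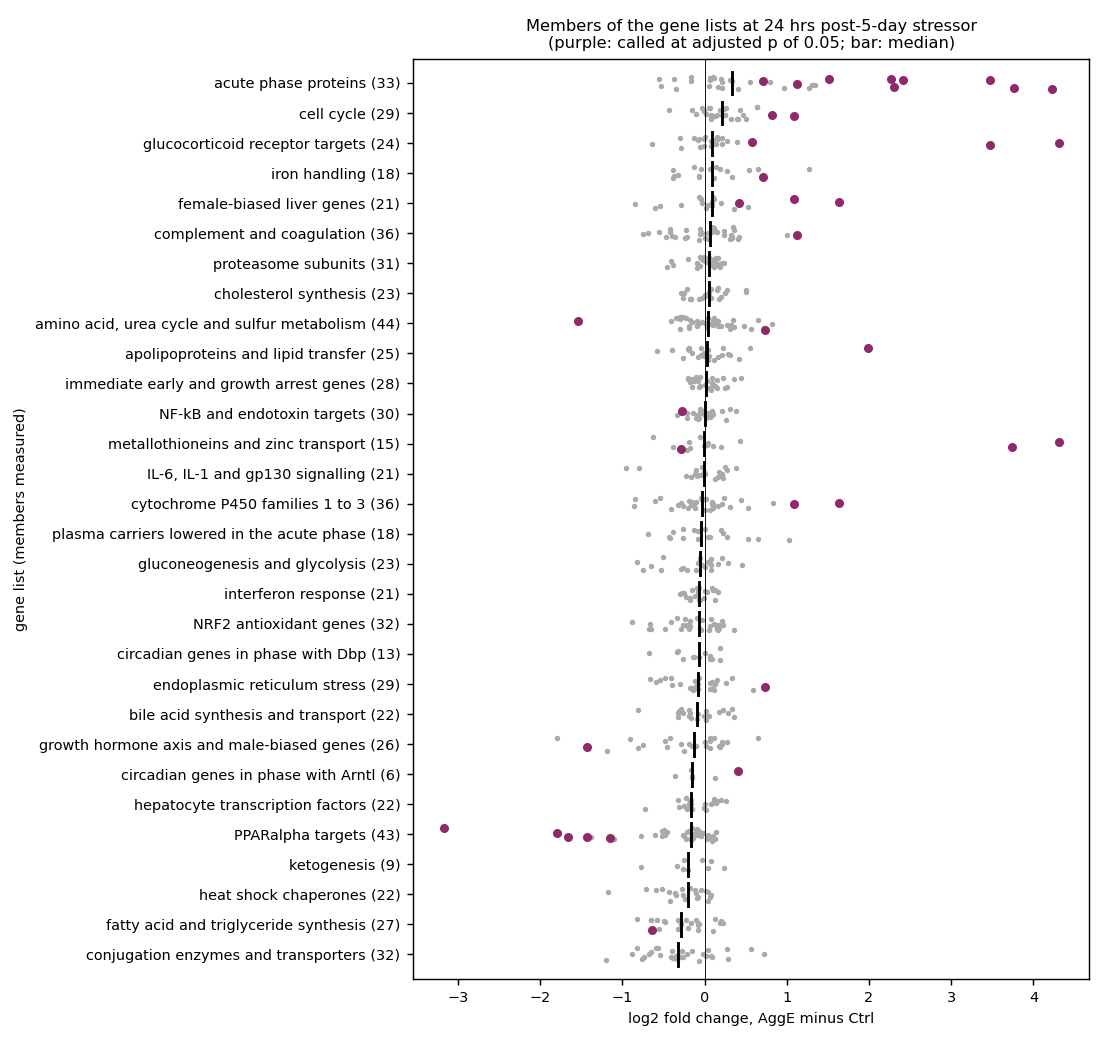
Change of each measured member of 30 gene lists (horizontal axis, log2 fold change of AggE over Ctrl), with lists ordered by their median (black bar) and the number of members measured in parentheses. Purple points passed the test. The acute phase proteins, with a median of 0.34, have called members only on the right, the PPARα targets, with a median of -0.17, only on the left, and most lists center near 0.

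The sequences upstream of the genes that rose were read for motifs that the regulators of this response bind. Of the 30 called and detected genes of 2-fold or more, 19 had a promoter window in the RefSeq-based table (GRCm38.p6), 15 of them rises, and the 250 bases before the transcription start were searched on both strands. The C/EBP motif TTGCNNAA was found in 10 of the 15 rises (66.7%), against 10.3% of the 13589 measured genes with a window of this length. It stood upstream of Saa1, Saa3, Lcn2, Orm2, Orm3, Mt2, Acnat2, Spp1, Cyp2b9 and Cyp2b13. Of the 4 falls with a window, 1 (25%) held it, Acot1, with matches at 143 and 128 bases before the start. The Orm pair, the Cyp2b pair and the Saa genes share sequence, so these are not separate observations. Stretches of 5 acute phase promoters follow, 5′ to 3′ on the strand of the gene, because they hold the motif upstream of the acute phase genes described above. Capitals mark the C/EBP motif.
Saa1, chr7:46743081-46743180, minus strand: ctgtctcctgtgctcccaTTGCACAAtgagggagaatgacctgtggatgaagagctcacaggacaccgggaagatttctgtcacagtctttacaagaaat
Saa3, chr7:46715727-46715826, minus strand: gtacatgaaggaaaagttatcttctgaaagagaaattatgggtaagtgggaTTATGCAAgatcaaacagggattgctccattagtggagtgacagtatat
Lcn2, chr2:32387890-32387989, minus strand: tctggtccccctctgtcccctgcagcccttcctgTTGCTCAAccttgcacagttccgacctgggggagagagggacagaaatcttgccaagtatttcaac
Orm2, chr4:63362299-63362388, plus strand: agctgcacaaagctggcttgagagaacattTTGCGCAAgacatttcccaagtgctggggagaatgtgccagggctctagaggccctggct
Orm3, chr4:63356008-63356097, plus strand: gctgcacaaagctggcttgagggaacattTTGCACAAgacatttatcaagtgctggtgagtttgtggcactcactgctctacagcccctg

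The motif began 182 bases before the start of Saa1, 99 before that of Saa3, 216 before that of Lcn2 and 120 and 121 before those of Orm2 and Orm3. Apcs had a STAT motif (TTCNNNGAA) at 244 bases, the only one among the 15 rises, against 7.67% of measured genes. An NF-κB motif (GGNNTTTCC) was found in Saa3 and Serpina3n, 2 of 15, against 5.71%. The motif of the glucocorticoid response element stood upstream of Mt1, Serpina3n and Acnat2, 3 of 15, against 0.39%. A match is only a description of the letters in this window.

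The metal response motif TGCNCNC is short and common, and was found in 9 of the 15 rises (60%), against 52.7% of measured genes. Mt2 held 5 copies and Mt1 held 1. The windows of the metallothioneins are shown because Mt2 had the largest fold change of the called and detected genes and Mt1 lies next to it. Capitals mark the metal response motif on either strand, and the longer run in Mt1 is the glucocorticoid response motif.
Mt1, chr8:94178969-94179088, plus strand: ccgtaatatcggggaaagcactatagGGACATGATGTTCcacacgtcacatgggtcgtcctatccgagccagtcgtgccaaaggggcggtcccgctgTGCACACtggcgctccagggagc
Mt2, chr8:94172368-94172617, plus strand: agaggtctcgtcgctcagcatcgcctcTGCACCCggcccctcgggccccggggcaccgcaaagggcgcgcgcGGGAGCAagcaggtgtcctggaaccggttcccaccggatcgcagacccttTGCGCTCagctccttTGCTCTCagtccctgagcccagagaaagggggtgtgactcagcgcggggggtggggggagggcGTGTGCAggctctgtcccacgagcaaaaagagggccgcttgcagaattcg

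A further rise outside the acute phase list was that of Apoa4, an apolipoprotein of triglyceride-rich particles made in intestine and in fasted or fatty liver. Apoa4 was at 0.98, 0.46, 1.77 and 0.65 in Ctrl and at 3.61, 2.75, 2.98, 2.96 and 2.42 in AggE. The groups did not overlap, and the change was 1.98 ± 0.25 (limma adjusted p = 1.02e-05). Apoa4 was the only one of 25 apolipoprotein and lipid transfer genes to be called, close to the 3.1% of all genes. Its call was lost with the slide as a random block (1.89, adjusted p = 0.0616) and without normalization between arrays (1.36, adjusted p = 0.325). With Cy-5 alone the change was 1.31 and called. Acnat2, an acyltransferase of fatty acids and amino acids in peroxisomes, was at 1.39, 0.97, 1.12 and 2.38 in Ctrl and at 2.80, 2.23, 2.42, 4.10 and 3.21 in AggE, where mouse 2 fell within the range of Ctrl mouse 4. Its log2 fold change was 1.49 ± 0.37 (adjusted p = 0.0222). Neither gene was well above background in the reference channel on any of the 9 arrays.

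Cyp2b9 and Cyp2b13, neighboring cytochrome P450 genes that are higher in female than in male liver, also rose. Cyp2b9 was at 1.41, 0.96, 1.23 and 2.02 in Ctrl and at 3.02, 3.45, 1.77, 3.59 and 3.40 in AggE (change 1.64 ± 0.44, adjusted p = 0.031). Cyp2b13 was at 1.21, 0.67, 1.14 and 1.11 in Ctrl and at 2.32, 2.16, 0.98, 2.18 and 2.95 in AggE (change 1.08 ± 0.28, adjusted p = 0.0248). AggE mouse 3 lay within the Ctrl range in both, and the other 4 AggE mice lay above it. The call of Cyp2b9 was lost without any 1 of 6 mice, with changes of 1.49 to 1.64, and that of Cyp2b13 without Ctrl mouse 2 (0.96) or 4 (1.11) or AggE mouse 5 (0.87). Both genes are close in sequence, a second probe of each gave changes of only 0.37 and 0.12, and the reference was dim for both. Of 21 female-biased genes, 3 rose, the third being Abcd2, which was dim on all 9 arrays, and of 36 cytochromes P450 of families 1 to 3 and their regulators only these 2 rose and none fell, against 1.62% of all genes called higher. Where the slide was a random block neither list had a called member, with changes of 1.70 for Cyp2b9 (adjusted p = 0.505), 1.25 for Cyp2b13 (0.424) and 0.42 for Abcd2 (0.368).

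Isyna1, the enzyme that makes inositol phosphate from glucose phosphate, was at -1.03, -1.19, -1.20 and -1.40 in Ctrl and at 0.23, 0.10, 0.10, -0.43 and 0.16 in AggE. AggE mouse 4 was the lowest and the other 4 agreed closely. Isyna1 rose by 1.23 ± 0.19 (adjusted p = 0.000304). Tff3, a trefoil peptide of mucosal repair, rose by 1.18 ± 0.19, from 0.46, 0.22, 0.55 and 0.30 in Ctrl to 2.16, 1.15, 0.98, 1.65 and 1.89 in AggE (adjusted p = 0.000428). Ang2, a ribonuclease of the angiogenin family, was at 0.93, 0.88, 1.57 and 0.68 in Ctrl and at 3.21, 2.14, 1.91, 1.90 and 2.62 in AggE (change 1.34 ± 0.38, adjusted p = 0.0419). Its call was lost without any of 5 mice, with changes of 1.13 to 1.31. In these 3 genes the groups did not overlap, though in Ang2 the highest Ctrl mouse came close. The reference was dim for Tff3 and Ang2 on all 9 arrays and bright for Isyna1 on all of them.

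Stmn1, Birc5 and Spp1 were called higher and stood above the Ctrl range in 4 of the 5 AggE mice. Stmn1, which destabilizes microtubules, was at -3.65, -3.71, -3.82 and -3.80 in Ctrl and at -2.47, -2.81, -2.36, -1.79 and -3.84 in AggE. AggE mouse 5 lay below the Ctrl mice, and the others were well above them. The change was 1.09 ± 0.22 (limma adjusted p = 0.00525), with 0.09 by its other probe. Birc5, the gene of the mitotic protein survivin, showed the same order of the AggE mice, with -3.02, -2.83, -3.21 and -3.21 in Ctrl and -2.18, -2.43, -1.94, -1.40 and -3.30 in AggE. Its change of 0.81 ± 0.23 was called at an adjusted p of 0.047 and lost without any of 8 mice, with changes of 0.60 to 0.89. Spp1, the matrix protein osteopontin, was at -5.61, -5.24, -5.66 and -5.30 in Ctrl and at -4.02, -4.16, -3.60, -3.60 and -5.47 in AggE, where mouse 5 again stood among the Ctrl mice (change 1.28 ± 0.25, adjusted p = 0.00408). Of 29 cell cycle genes, 2 rose, none fell and 27 did not pass the test, and 24 had a positive change, with a median of 0.22. Of all genes 1.62% were called higher and 49.9% had a positive change, and of the detected genes 40.9% had one. The median over the list was 0.25, 0.26, 0.37 and 0.43 in AggE mice 1 to 4, -0.28 in mouse 5 and -0.07 to 0.08 in the Ctrl mice. Without AggE mouse 5, 6 members were called. Spp1 is also the only called one of 8 markers of bile duct cells, of which 6 had a positive change. Of the keratins and adhesion molecules that define these cells, Krt19 changed by 0.34 (adjusted p = 0.318) and was well above background on 2 Ctrl arrays and 1 AggE array, while Krt7, at -0.36, and Epcam, at 0.02, were dim on all 9. None of the cell cycle genes was called with the slide as a random block, and neither was Spp1 (1.02, adjusted p = 0.427), with adjusted p-values of 0.494 for Stmn1 and 0.825 for Birc5.

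Cyp4a14, Cyp4a10, Cyp4a31 and Cyp4a12a, fatty acid hydroxylases, were called lower. Cyp4a14 had log2 ratios of 7.51, 7.30, 6.78 and 7.16 in Ctrl and of 5.81, 5.34, 2.48, 2.14 and 4.30 in AggE. All AggE mice were below all Ctrl mice, and among the called and detected genes it varied the most within the AggE group (SD 1.65). The change was -3.17 ± 0.77 (95% confidence interval -4.74 to -1.60; limma adjusted p = 0.0191), and it was not called without Ctrl mouse 1 (-3.06) or Ctrl mouse 4 (-3.18). In the signals processed by the scanner software Cyp4a14 changed by only -0.99 and was not called (adjusted p = 0.779). Its neighbor Cyp4a10 was at 4.27, 3.45, 4.39 and 3.44 in Ctrl and at 2.06, 2.29, 1.85, 1.06 and 3.22 in AggE, with AggE mouse 5 just below the Ctrl range. Its change was -1.79 ± 0.37 (adjusted p = 0.006), and 0.94 in the opposite direction in these processed signals.

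Cyp4a31 was at 6.40, 5.71, 6.06 and 6.07 in Ctrl and at 4.55, 5.00, 4.21, 3.5 and 4.73 in AggE, a change of -1.66 ± 0.38 (adjusted p = 0.0123) that turned to 1.34 in the processed signals. Cyp4a12a, of the same family and male-biased, was at 4.55, 4.18, 4.30 and 4.70 in Ctrl and at 2.73, 3.16, 2.88, 2.35 and 3.89 in AggE, a change of -1.43 ± 0.41 (adjusted p = 0.0457) that turned to 1.07 in the processed signals. The groups did not overlap in either gene, and AggE mouse 4 was the lowest in both. The call of Cyp4a31 was lost without Ctrl mouse 1 (-1.55) and that of Cyp4a12a without any mouse but AggE mouse 5, with changes of -1.52 to -1.27. The reference channel was at or near background for the family, with Cyp4a14 well above it on 2 of 4 Ctrl and 0 of 5 AggE arrays, Cyp4a10 on 3 and 1, and Cyp4a31 and Cyp4a12a on 4 and 1. With Cy-5 alone the changes of Cyp4a14, Cyp4a10, Cyp4a31 and Cyp4a12a were -2.77, -1.18, -1.52 and -1.03, all called. With the slide as a random block none of the 4 was called, and the changes were -3.16, -1.57, -1.59 and -1.15. Cyp4a14, Cyp4a10 and Cyp4a31 are adjacent in the genome and close in sequence, and their probes may share signal. A second probe of Cyp4a31 gave a change of 0.07 and one of Cyp4a10 of -0.34.

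Of 43 PPARα targets with a probe, 5 fell, none rose and 38 did not pass the test, against 1.49% of all genes called lower. For 9 members all AggE values lay below the Ctrl range, against 4.88% of all genes, 7 had a positive change, and the median was -0.17. The number called ranged from 0 to 9 over the alternatives, and it was 0 where the slide entered as a random block. The fifth called member was Acot1, a thioesterase that releases fatty acids from coenzyme A, at 0.88, 0.76, 0.62 and 0.69 in Ctrl and at -0.80, -0.28, -0.44, -0.88 and 0.32 in AggE. The Ctrl mice agreed closely and all AggE mice were below them, with mouse 5 the nearest. Acot1 fell by 1.15 on the log2 scale (SE 0.24, adjusted p = 0.00708), and its change with the slide as a random block was -1.02, not called (adjusted p = 0.392). Genes of β-oxidation that PPARα also controls were not called, with changes of 0.04 for Cpt1a, -0.26 for Acadm and -0.22 for Hadha in mitochondria and of -0.48 for Acaa1a and -1.10 for Ehhadh in peroxisomes. Acaa1a had an adjusted p of 0.102 and Ehhadh one of 0.086.

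Csad, cysteine sulfinic acid decarboxylase of taurine synthesis, fell in every AggE mouse. It was at 1.26, 1.49, 1.04 and 2.01 in Ctrl and at -0.26, -0.07, 0.14, -0.37 and 0.12 in AggE. The groups lay clearly apart, and the AggE mice agreed more closely than the Ctrl mice. The change was -1.54 ± 0.34 (limma adjusted p = 0.00953), -1.70 by a second probe and -1.80 in the processed signals, and the reference was well above background on all 9 arrays. Without Ctrl mouse 4, the highest, the change was -1.35 and not called. Among 44 genes of amino acid, urea cycle and sulfur metabolism, Csad was the only one to fall, against 1.49% of all genes called lower. Asns, asparagine synthetase and a target of the amino acid response, was the only one to rise, against 1.62% of all genes, by 0.74 ± 0.20 (adjusted p = 0.0386). A count of 1 in 44 is near these shares. It was at -3.32, -3.18, -3.24 and -3.68 in Ctrl and at -2.89, -2.46, -2.04, -2.61 and -3.09 in AggE, where mouse 5 was nearest to the Ctrl range. The call of Asns was lost without any of 7 of the 9 mice, with changes of 0.60 to 0.80. Both calls were lost where the slide was a random block, with changes of -1.51 for Csad (adjusted p = 0.439) and 0.58 for Asns (adjusted p = 0.721).

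Me1, the malic enzyme that supplies NADPH for fatty acid synthesis, was at 0.45, 0.63, 0.43 and 1.13 in Ctrl and at -0.17, 0.14, 0.14, -0.36 and 0.33 in AggE. It fell by 0.64 (SE 0.18, adjusted p = 0.0438), the only one of 27 genes of fatty acid and triglyceride synthesis to be called, close to the 3.1% of all genes. The list as a whole had a median of -0.29, with 5 positive members, while Fasn changed by -0.58 and Scd1 by -0.23 without a call. The call of Me1 was lost without Ctrl mouse 1, 2 or 4 or AggE mouse 1 or 4, where the change was -0.71, -0.65, -0.48, -0.59 and -0.55, and where the slide was a random block (-0.60, adjusted p = 0.616). Ces1e, a carboxylesterase, was at 5.66, 5.64, 5.27 and 5.50 in Ctrl and at 4.74, 4.88, 4.81, 3.78 and 4.04 in AggE, a change of -1.07 ± 0.27 (adjusted p = 0.023) that turned to 1.31 in the processed signals. It was not called without Ctrl mouse 1, 2 or 4 or AggE mouse 4 or 5, with changes of -1.08 to -0.90. Retsat, retinol saturase, was at 3.47, 3.32, 3.67 and 2.62 in Ctrl and at 2.39, 2.78, 2.66, 2.08 and 2.35 in AggE, with Ctrl mouse 4 within the AggE range (change -0.82 ± 0.22, adjusted p = 0.0323). The call of Retsat was lost without any of 6 mice, with changes of -0.80 to -0.69.

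Of smaller falls, Blvrb, the biliverdin reductase of the last step of heme breakdown, had values of 1.88, 1.64, 1.44 and 1.65 in Ctrl and 1.15, 0.96, 1.07, 1.14 and 0.82 in AggE. It fell by 0.62 (SE 0.13, adjusted p = 0.00726). Eif2ak1, the heme-regulated kinase of translation initiation, fell by 0.58 (SE 0.13, adjusted p = 0.00932), from 0.79, 0.63, 0.71 and 0.30 to 0.13, 0.21, -0.24, -0.27 and 0.30. The groups were apart for Blvrb and nearly touched for Eif2ak1, between Ctrl mouse 4 and AggE mouse 5. A second probe of Eif2ak1 gave a change of -0.09 and was not called. Acrbp and Oog4, known from germ cells, fell by 0.92 and 1.17, but other probes of each gave 0.09 and 0.08, and Oog4 turned to 0.94 in the processed signals.

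Conjugating enzymes and transporters had no called member of 32, with a positive change in 8 and a median of -0.33 that ran from -0.87 to 0.07 over the alternatives. The most negative values were -1.20 for Sult5a1, -0.88 for Gsta2 and -0.82 for Slc22a30. Gstp1, a glutathione transferase, was at 2.76, 2.89, 2.89 and 2.61 in Ctrl and at 2.24, 2.02, 2.47, 2.18 and 2.10 in AggE. These groups did not overlap, but with the pooled spread of the series the change of -0.59 ± 0.48 did not pass the test (adjusted p = 0.594). No member was called of the lists of heat shock chaperones (22 genes, median -0.21), NRF2 targets (32, -0.07), gluconeogenesis and glycolysis (23, -0.05), cholesterol synthesis (23, 0.05), bile acids (22, -0.09), ketogenesis (9, -0.20), hepatocyte transcription factors (22, -0.16), immediate early genes (28, 0.02) and the proteasome (31, 0.05).

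Markers of other cells that could enter a liver sample were read list by list. No neutrophil marker of 12 was detected, and their summed Cy-5 signal was 1217 to 1272 in Ctrl and 1222 to 1605 in AggE. The defining markers Ngp, Camp and Elane were well above background on 0 of the 9 arrays, S100a9 on 2 Ctrl and 3 AggE arrays and Mmp9 on 1 AggE array. Kupffer cell and macrophage markers, none of 11 called, summed to 5260 to 6506 in Ctrl and 5847 to 7630 in AggE. A positive change was seen in 9 of these 11, with a median of 0.094. The same held for 10 of the 12 neutrophil markers, with a median of 0.088, against 49.9% of all genes. Relative to the Ctrl means, the medians of the AggE mice overlapped those of the Ctrl mice in both lists. Skeletal muscle markers summed to 1056 to 10233 in Ctrl and 904 to 2570 in AggE, so the highest sum was that of a Ctrl mouse. Of 14 stellate cell and fibroblast markers, none was called and 11 had a positive change, and the median over the list, relative to the Ctrl means, was 0.09 to 0.21 in the AggE mice and -0.04 to 0.02 in the Ctrl mice. The 2 ranges did not overlap. Bile duct markers, with Spp1 among them, summed to 1509 to 1703 in Ctrl and 1457 to 3165 in AggE. Fabp2, an intestinal fatty acid binding protein and a PPARα target, was below the Ctrl range in all AggE mice, with a change of -1.38 that narrowly missed a call (adjusted p = 0.0521) and was -0.23 by a second probe. Fabp4, a marker of adipose tissue, had a change of 1.27 (adjusted p = 0.051), with 0.10 by another of its 3 probes. The part of these markers in the changes described was not tested. The called members of these lists, against 1.62% of all genes called higher, were Spp1 (1 of 8 bile duct markers) and Apoa4 (1 of 7 intestinal markers), above, and Gzma (1 of 11 for T cells and NK cells), Ccr2 (1 of 7 for monocytes) and Cela2a (1 of 7 for pancreas), which were dim on all 9 arrays. With the slide as a random block, limma called none of Gzma, Ccr2 and Cela2a (adjusted p = 0.383, 0.416 and 0.526).

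The 5 AggE mice differed in how far the same genes moved. Among the 22 detected genes that rose 2-fold or more, the change from the Ctrl mean was largest in mouse 4 for 11 genes and in mouse 1 for 7. It was smallest in mouse 3 for 12 and in mouse 5 for 7. The median change over these genes was 2.37, 1.92, 1.41, 2.16 and 1.89 in mice 1 to 5. Among the 8 falls mouse 4 had the largest change in 7 and mouse 5 the smallest in 4, with medians of -1.52, -1.38, -1.57, -1.95 and -1.0. Mouse 4 had the lowest share of probes well above background, 15.3%, and mouse 5, on a slide apart from the other exposed mice, the highest, 27.8%. Their part in these differences was not tested. The values of the whole arrays were closely alike, with correlations across 4188 genes of 0.980 to 0.989 among Ctrl, 0.963 to 0.988 among AggE and 0.964 to 0.981 between the groups.

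Genes that varied most among the AggE mice were not always changed. Elovl3, an elongase of very long chain fatty acids whose transcript is male-biased and rhythmic, was at 4.23, 3.34, 3.53 and 4.29 in Ctrl and at 1.12, 0.82, 1.45, 3.67 and 3.23 in AggE. AggE mice 1 to 3 lay far below the Ctrl range, and mice 4 and 5 reached it or nearly so. The change of -1.80 ± 0.66 did not pass the test (adjusted p = 0.13). Lifr, the receptor of leukemia inhibitory factor, was at 3.31, 3.46, 4.03 and 3.09 in Ctrl and at 2.99, 2.69, 1.93, 1.34 and 3.64 in AggE, and Hsd3b4, a steroid dehydrogenase, at 3.38, 4.07, 4.17 and 3.84 and at 3.04, 2.56, 1.47, 1.74 and 3.67. In both, mice 3 and 4 were lowest and mouse 5 within the Ctrl range, and the changes of -0.95 and -1.37 did not pass the test. Upp2, a uridine phosphorylase, ran from 0.75 in AggE mouse 4 to 3.99 in mouse 5 around a Ctrl range of 1.57 to 3.24, with a change of 0.17.

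**Figure D4:**
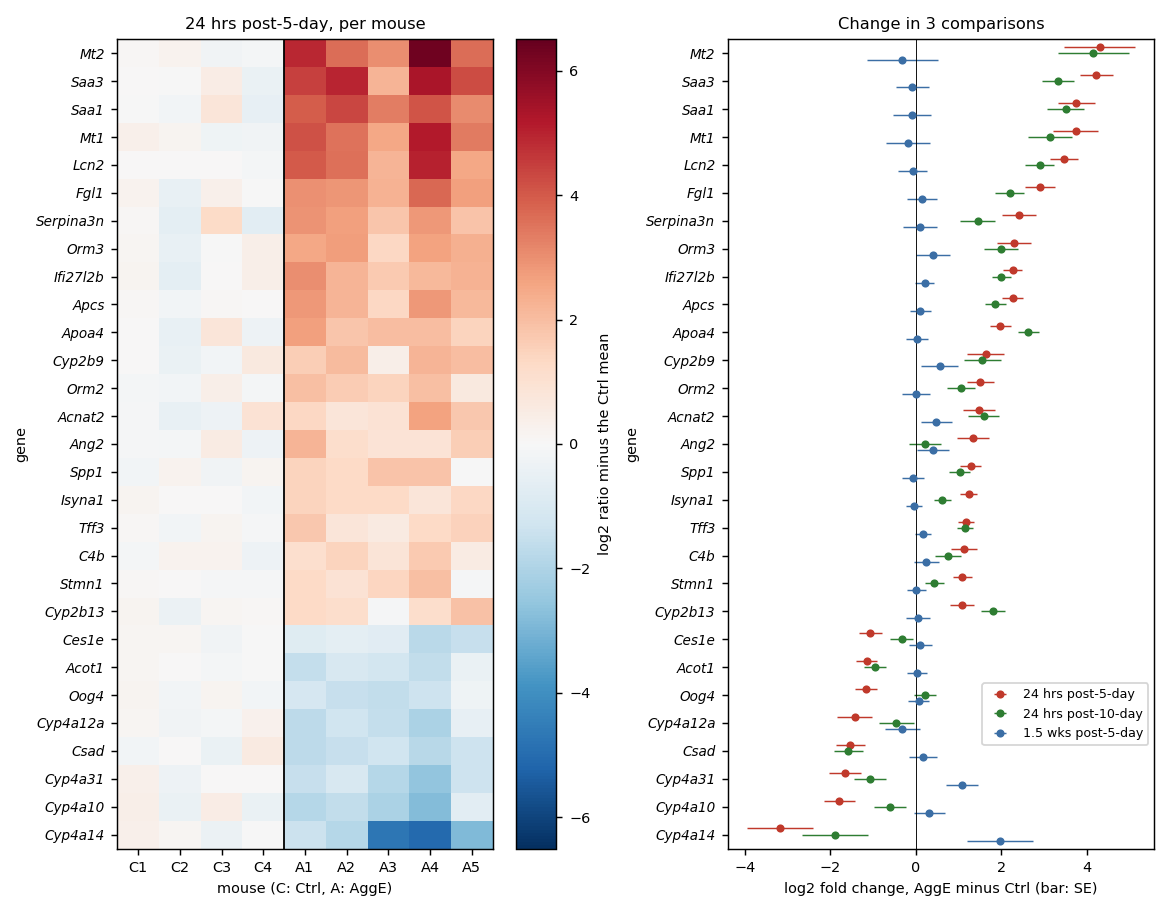
Left, log2 ratio minus the Ctrl mean in each of the 4 Ctrl (C) and 5 AggE (A) mice for 21 of the 22 rises and the 8 falls of 2-fold or more, in color. Right, log2 fold change of the same genes with its SE at 24 hrs post-5-day (red), 24 hrs post-10-day (green) and 1.5 wks post-5-day stressor (blue), where all 22 rises have medians of 1.81, 1.70 and 0.077. Lcn2 is shown at its fitted value although it was dim in all Ctrl mice.

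The titles of the 5 AggE arrays at 1.5 wks carry the prefix T10, that of the 10-day AggE mice. The title of 1 Ctrl array at 1.5 wks begins with HC10, a prefix that no other array has. The source names and descriptions of these arrays give 5 days, which was followed here. The same genes were read in the comparisons that share the rest time or the regimen, each with Ctrl mice of its own. At 24 hrs post-10-day stressor, 16 genes were called (0.094%), and at 1.5 wks after the 5-day regimen limma called none (0%), with 424 genes (2.49%) at an unadjusted p of 0.05 or less. All 22 rises had a positive change at 24 hrs post-10-day, 13 were called there, and their median of 1.70 was close to the 1.81 after 5 days. The genes had been chosen for their change after 5 days, so a smaller change after 10 days is no result in itself. The differences between the regimens passed the limma test in 0 of the 22 rises and 0 of the 8 falls (3 and 2 before adjustment of the p-values), and in 6 of all genes (0.0353%). Saa3 changed by 4.23 and 3.33, Mt2 by 4.31 and 4.16, Csad by -1.54 and -1.58, and Cyp4a14 by -3.17 and -1.89 after 5 and 10 days. Apoa4 was higher after 10 days, at 2.63 against 1.98. None of the 8 falls was called after 10 days, where their median was -0.78 and 7 of them had a negative change.

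At 1.5 wks post-5-day stressor the rises had returned to a median change of 0.077, between -0.32 and 0.56, and none was called. The difference between the changes at 24 hrs and at 1.5 wks passed the test for 8 of the 22 rises, 1 of the 8 falls and 16 of all genes (0.094%). These genes were chosen for their change at 24 hrs, which enters the difference, so their counts are a description and not independent support. Among the acute phase genes, Saa1 changed by 3.76 at 24 hrs and -0.09 at 1.5 wks (difference 3.85, adjusted p = 0.00277), and Saa3 by 4.23 and -0.09 (difference 4.32, adjusted p = 8.18e-05). Mt1 changed by 3.74 and -0.19 (difference 3.93, adjusted p = 0.0167), while the difference of Mt2 did not pass the test (adjusted p = 0.189). Cyp4a31 went from -1.66 to 1.09 (difference -2.75, adjusted p = 0.0251), a difference that turned to 0.71 in the processed signals. Cyp4a14 went from -3.17 to 1.97, at an adjusted p of 0.0538 for the difference. AggE mouse 5 shared its slide with AggE arrays of 1.5 wks. With the slide as a random block, only the difference of Saa3 kept its call among the 10 named genes whose difference had passed.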

How the data were processed

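Liver RNA in Cy-5 and Stratagene Universal Mouse Reference RNA in Cy-3 were hybridized, without dye swap, to Agilent 4x44k whole mouse genome arrays. The authors deposited scanner intensities (median spot and background signals of both channels) from Agilent Feature Extraction, version 11.5.1.1 per the file headers, and a series table of log10 ratios of Cy-5 to Cy-3 that differed from the log ratios of the array files by at most 0.005. The processed signals deposited beside them are intensities that the scanner software had background-subtracted and dye-normalized.

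From the median intensities, control spots (1639 of 45018) were left out after background correction (normexp, offset 50), each array was normalized by loess, and arrays were normalized between each other by quantiles in limma 3.58.1 (R 4.3.3). Spots of 1 probe were averaged. A linear model with 8 groups was fitted to 25903 RefSeq probes of 39 arrays with moderated tests, and p-values were adjusted over all of these probes by Benjamini-Hochberg. A gene was represented by its probe of highest mean Cy-5, which gave 17016 genes, and 1528 probes without a symbol (46 called) were not named. No Cy-5 spot was saturated. The precision is limited by the number of arrays. A bound of "at least N-fold" sets the mean of the bright group against that of the dim group, whose arrays each enter with the probe's own signal or, where it is higher, the weakest signal marked as well above background (log2 Cy-5 after loess and Aquantile, open to dye bias). The p-values of the comparison rest on the spread between mice within groups, pooled over the 8 groups. They do not separate a difference between slides from that between the groups, and the correlation within a slide was estimated at 0.32.

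The code was tested on simulated data. Promoter windows came from RefSeq (GRCm38.p6), read with Python 3.11.15.

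Named genes were the 15 largest non-overlapping called rises and falls among detected genes, called members of each list (or its 2 brightest members), liver genes named by the study, genes whose change differed most from that at the other times, those most variable among AggE mice, and cell type markers. Members and lists were chosen with earlier results of these data known. Acnat2, Tff3, Olfr584, Hic2, Mob3a and further uncalled list members were named after their values were seen. Some items are not reported here.

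The alternatives were no background correction, offsets of 0 and 16, processed signals, the series table, no or other normalization between arrays, Cy-5 alone, other sets of probes or arrays, array weights, the slide or the replicate number as a block, other rules for several probes, and leaving out each mouse.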

Additional observations from a re-analysis of the deposited data

Results flagged for a closer look

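For 3 of the called genes a single mouse stood apart from the rest of its group by Dixon's criterion. Chance meets this criterion in about 1 of 20 groups, and it was applied to both groups of every named, called and detected gene. Some cases are therefore to be expected by chance, and the 3 are only a description. Isyna1, of inositol synthesis, was at -0.43 in AggE mouse 4, with the nearest other exposed mouse at 0.10. It was still above all Ctrl mice. Lcn2 was at -0.38 in Ctrl mouse 4, with the next Ctrl mouse at -0.25, all of them dim. Orm2 was at 6.75 in Ctrl mouse 3, with the next at 6.26, and the same mouse was the highest of its group in Saa1, Saa3, Serpina3n and Apoa4.

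By a limma test the change at 24 hrs differed from that at 1.5 wks post-5-day stressor in 10 of 49 named and called genes. Of all genes 0.094% passed this test. Only genes already called for their change at 24 hrs were counted, some named for the size of this difference. The count is therefore a description. Among secreted and acute phase proteins the differences in log2 fold change were 4.32 for Saa3 (adjusted p = 8.18e-05), 3.85 for Saa1 (0.00277), 3.55 for Lcn2 (0.000117), 2.76 for Fgl1 (0.0101) and 2.16 for Apcs (0.00399). That of Lcn2 rests on a fitted value, since the gene was dim in all Ctrl mice at 24 hrs. The others that were higher at 24 hrs were Mt1 (3.93, 0.0167), Ifi27l2b (2.06, 0.00161) and Apoa4 (1.96, 0.0129). Lower at 24 hrs were Cyp4a31 (-2.75, 0.0251), with 0.71 in the processed signals, and Retsat (-1.56, 0.0305). With the slide as a random block the difference of Saa3 alone remained called (adjusted p = 0.0145).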

How the results depend on the processing

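Counts of called genes depended on the processing far more than the leading genes did. Against 528 genes at an adjusted p of 0.05 or less and 51 at 2-fold and an unadjusted p, the counts were 840 and 146 without background correction, 270 and 1212 in the processed signals, 922 and 96 with an offset of 16, 16 and 145 without normalization between arrays and with Aquantile alike, and 115 and 1106 in the series table. With no offset the 2-fold count was 724. The adjusted count was 32 with quantiles over the 9 arrays alone, 819 with Cy-5 alone, 53 over probes well above background, 51 with the 9 arrays alone in the fit, 1130 with array weights and 9 where the slide was a random block. Without 1 mouse it ran from 198 (without Ctrl mouse 4) to 558, with 242, 300 and 330 without Ctrl mouse 1, 2 and 3. The split moved from 52.1% higher to 41.4% without background correction, 37.6% with an offset of 16 and 62.3% without Ctrl mouse 2.

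The deviations of mice of the same number in both groups had correlations of 0.12, 0.053, -0.14 and 0.18. Mice of different numbers were not compared, so these values cannot decide whether the numbers pair the mice. The replicate block gave 303 genes.

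Of 49 named and called genes, 3 (Saa1, Saa3 and Lcn2) kept their call under all 26 alternatives, 26 when any 1 mouse was left out, 42 with Cy-5 alone, 18 in the processed signals, 17 in the 9 arrays alone and 6 where the slide was a random block. In the processed signals 7 changed direction, namely Abcd2 (-0.23), Cela2a (-0.79), Ces1e (1.31), Cyp4a10 (0.94), Cyp4a12a (1.07), Cyp4a31 (1.34) and Oog4 (0.94), as did the difference of Cyp4a31 from its change at 1.5 wks (0.71). The cause was not tested. Signals were low, with 6500 of 17016 genes detected, and 11 of the 49 had no reference signal above background on any of the 9 arrays.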
